A study of Mus musculus with 2 samples.

Results

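Some array probe sets are listed for more than 1 gene, so their signal may hold what several genes contribute and cannot be given to 1 of them. The probe sets described here are the non-control ones for which the platform annotation lists more than 1 gene symbol or Entrez ID. They number 932 of 45037 non-control probe sets (2.07%), and they list 1551 distinct genes in 635 distinct gene lists. Of these probe sets, 671 list 2 genes, and the longest list holds 18. They were compared between uterine stromal cells of Hand2-null mice and of floxed control mice and are grouped below by gene family. Names separated by slashes are the genes listed for a probe set, without a claim about which of them gave the signal.

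Both groups came from mice on day 4 of pregnancy, of a mixed C57BL/6 and SV129 background for which the labels list Prcre in both groups. The control carried floxed Hand2 alleles and the Hand2-null group had Hand2 removed in the uterus by the PRcre line, whose recombinase follows the progesterone receptor gene and so acts in every cell type that uses that gene. Hand2 encodes a transcription factor with a basic helix-loop-helix domain, which progesterone induces in the stroma of the uterus. Stromal cells were freed with dispase, pancreatin and then collagenase, and were left to attach for a short time. RNA was pooled within each genotype and put on 1 array per group, so no value has a replicate and no test was made. The series design gives 5 mice for each pool, while the protocol for extraction gives 4.

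Hand2 had a signal of 1545 in the control and 38.5 in the Hand2-null array, at least 22.9-fold lower. The floor below which a signal was not read was 64.2 in the control and 67.5 in the Hand2-null array. Each floor is the 60th percentile of that array, and lower signals were set to it. Markers of other cell types differed between the arrays. The 12 markers of smooth muscle were all higher after the loss of Hand2, with a summed signal of 23010 in the control against 52379, and 5 of 6 measured mesothelial markers were higher (median log2 ratio 0.86). Of 8 stromal markers, 3 were higher and 5 lower (median -0.25), with a summed signal of 29312 against 32430. Epithelial markers summed to 8014 against 8008, although 8 of 10 measured were higher and 2 lower (median 0.18). The 2 lower, Krt18 (-0.26) and Cldn3 (-0.37), are bright. Macrophage markers summed to 10111 against 9685, and blood endothelial markers to 2362 against 1747. Fewer cells of a type and less RNA per cell cannot be told apart in these pools.

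Families of near-identical genes arise by tandem duplication, which leaves working copies side by side, and by reverse transcription of mRNA, which scatters processed pseudogenes over the genome. Genes with abundant mRNA, such as those for ribosomal proteins, have many such pseudogenes. Histone genes stand in clusters of many coding copies, while immune families such as the MHC genes, the Ifi200 genes and chemokine genes have grown by local duplication. By gene order in RefSeq, 342 of the 932 probe sets list a gene with pseudogene copies, 274 list neighbouring genes and 119 list overlapping genes. A further 71 list genes farther apart on 1 chromosome, 65 list genes on different chromosomes, and for 61 fewer than 2 genes could be placed.

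Start regions show how alike the copies are for some of the genes that stand out below, and not for copies in general. The following windows run from 250 bases before to 50 bases after each gene's start in RefSeq (GRCm38.p6), 5′ to 3′ on the gene's strand, with the longest stretch identical in both copies in capitals. The first pair belongs to Plac9a (chr14:25902844-25903143, minus strand) and Plac9b (chr14:26182302-26182601, minus strand), shown because their shared probe set is among the highest.
Plac9a: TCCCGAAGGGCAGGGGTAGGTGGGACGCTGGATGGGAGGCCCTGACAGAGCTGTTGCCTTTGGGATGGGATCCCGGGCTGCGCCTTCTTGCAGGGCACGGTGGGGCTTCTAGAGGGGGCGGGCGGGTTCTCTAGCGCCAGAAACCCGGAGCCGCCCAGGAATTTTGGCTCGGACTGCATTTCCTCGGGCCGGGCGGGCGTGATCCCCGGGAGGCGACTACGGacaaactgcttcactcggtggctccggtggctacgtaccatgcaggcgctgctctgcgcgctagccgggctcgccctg
Plac9b: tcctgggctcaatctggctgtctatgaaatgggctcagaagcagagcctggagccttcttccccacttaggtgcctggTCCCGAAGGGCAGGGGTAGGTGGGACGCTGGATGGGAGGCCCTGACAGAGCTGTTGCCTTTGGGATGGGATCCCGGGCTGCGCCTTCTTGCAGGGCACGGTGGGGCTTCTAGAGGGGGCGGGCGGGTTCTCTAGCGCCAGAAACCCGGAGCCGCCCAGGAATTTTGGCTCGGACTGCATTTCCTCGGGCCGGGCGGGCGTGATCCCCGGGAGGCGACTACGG
The 2 windows share an identical run of 222 bases and differ in where the annotated start lies. The Tmem254a window (chr14:25927623-25927922, minus strand), from the same duplicated stretch, is identical to that of Tmem254c (chr14:26067376-26067675, minus strand) over all 300 bases.
Tmem254a: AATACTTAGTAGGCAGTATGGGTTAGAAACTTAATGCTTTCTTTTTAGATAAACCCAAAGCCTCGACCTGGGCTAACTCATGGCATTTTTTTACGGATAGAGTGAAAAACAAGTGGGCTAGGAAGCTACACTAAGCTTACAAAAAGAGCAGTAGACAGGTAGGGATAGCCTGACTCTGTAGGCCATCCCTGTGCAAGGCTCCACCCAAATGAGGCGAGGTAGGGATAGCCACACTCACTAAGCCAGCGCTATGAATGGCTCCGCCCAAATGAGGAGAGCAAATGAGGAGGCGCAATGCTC
The Ccl21a (chr4:42773942-42774241, minus strand) and Ccl21d (chr4:41903363-41903662, plus strand) windows align with 297 identical bases.
Ccl21a: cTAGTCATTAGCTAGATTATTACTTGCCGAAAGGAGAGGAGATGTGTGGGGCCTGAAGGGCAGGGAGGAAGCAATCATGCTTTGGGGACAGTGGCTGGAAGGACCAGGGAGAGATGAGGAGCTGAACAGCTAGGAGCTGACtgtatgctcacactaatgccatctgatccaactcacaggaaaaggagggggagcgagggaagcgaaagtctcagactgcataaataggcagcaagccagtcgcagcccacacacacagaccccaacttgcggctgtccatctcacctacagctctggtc
Ccl21d: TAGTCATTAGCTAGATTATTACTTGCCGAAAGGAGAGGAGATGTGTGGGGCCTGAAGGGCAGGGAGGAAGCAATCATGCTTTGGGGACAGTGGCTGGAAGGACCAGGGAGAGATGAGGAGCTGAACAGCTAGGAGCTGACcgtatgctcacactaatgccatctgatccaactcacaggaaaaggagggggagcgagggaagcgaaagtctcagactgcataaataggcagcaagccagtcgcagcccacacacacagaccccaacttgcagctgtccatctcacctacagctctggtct
The Ctla2a (chr13:60936576-60936875, minus strand) and Ctla2b (chr13:60897398-60897697, minus strand) windows align with 255 identical bases, and their longest identical run is 36 bases. They are shown because their shared probe set has the highest signal among the lowest ratios.
Ctla2a: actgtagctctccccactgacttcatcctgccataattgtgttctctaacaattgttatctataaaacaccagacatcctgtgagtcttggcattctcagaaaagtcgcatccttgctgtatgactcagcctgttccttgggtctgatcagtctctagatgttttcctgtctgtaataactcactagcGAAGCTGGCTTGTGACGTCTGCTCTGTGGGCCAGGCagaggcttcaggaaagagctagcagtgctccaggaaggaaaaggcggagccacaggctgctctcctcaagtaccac
Ctla2b: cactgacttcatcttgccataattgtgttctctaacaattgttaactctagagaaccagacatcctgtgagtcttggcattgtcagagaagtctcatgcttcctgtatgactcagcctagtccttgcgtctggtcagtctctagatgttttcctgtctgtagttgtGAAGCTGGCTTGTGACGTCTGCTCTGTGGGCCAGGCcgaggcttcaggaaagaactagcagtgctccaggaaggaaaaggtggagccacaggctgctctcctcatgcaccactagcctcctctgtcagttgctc
Helix-loop-helix factors bind E-boxes, so CANNTG, which reads the same on both strands, was searched in these windows. It is present in 72.1% of all 27025 promoter windows of this length. It occurs 0 times in the Plac9a and Plac9b windows, 4 times in those of Tmem254a and Tmem254c, once in Ccl21a, 2 times in Ccl21d, once in Ctla2a and 2 times in Ctla2b. These letters are common in windows of this length, and a match is a description only. Mettl7a1 and Mettl7a2, the pair with the highest ratios, are less alike here, with 176 identical bases over the window and 1 match each. Acot2 and Acot1, the pair with the lowest ratio, have 154 identical bases, and Ccl21b and Ccl21a have 150. In 309 pairs from 1 gene list whose symbols start with the same letters, with pairs of Gm symbols left out, the median was 158 of 300 bases. Of these pairs, 26 had at least 270. In the other 132 pairs the median was 239, and 44 had at least 270. These others include all pairs of Gm symbols, such as Gm10591 and Gm13304 with 300 identical bases. The 2 medians thus do not set family copies against unrelated genes.

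Of the 932 probe sets, 506 reached the floor in at least 1 array, 481 of them in both, 14 in the control only and 11 in the Hand2-null array only. The other 426 stayed under the floor in both arrays and were given no ratio. Among the 506, 5 reached 2-fold on the higher side in Hand2-null cells and 1 on the lower side, or 0.988% and 0.198%. Over all 18919 measured probe sets, 1.88% reached it on the higher side and 0.629% on the lower side. The floor bears on both counts, since low signals were raised to it in either array. On the lower side, 94 of the 506 had a control signal under 2 times the Hand2-null floor. These could not have been counted as lower whatever their Hand2-null signal was. The like count from the Hand2-null signal was not made for the higher side. The shares of shared probe sets past 2-fold were thus no larger than the background in either direction.

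On balance the shared probe sets were slightly lower in the Hand2-null array, mainly the brightest ones. Of the 506, 338 were lower (66.8%) and 168 higher, and the median log2 ratio was -0.09, while 53.1% of all measured probe sets were lower, with a median of -0.02. Probe sets of ribosomal proteins made up 98 of the 506, and without them 245 of 408 were lower, with a median of -0.05. In 4 bands of signal from dim to bright, 42.9%, 51.2%, 59.0% and 79.2% of shared probe sets were lower. For probe sets that list 1 gene the shares were 47.6%, 53.3%, 56.5% and 58.6%. The brightest band held 279 of the 506, and 193 without ribosomal proteins, of which 72.0% were lower. The excess of lower values over single-gene probe sets thus lay mainly in that band, and its cause was not tested. By kind of list, 196 of 249 probe sets for a gene with pseudogene copies were lower (median -0.12), against 48 of 99 for neighbouring genes (median 0.02) and 24 of 53 for overlapping genes (median 0.02). Counts by family below are of probe sets, several of which can carry 1 gene list.

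With no replicate array, the closest measure of error is how far probe sets with the same gene list disagree. In 97 gene lists with several measured probe sets, the pooled standard deviation of the log2 ratio within a list was 0.18 (173 degrees of freedom), and in 68 of the 97 all probe sets lay on the same side of 0. This spread holds the disagreement between probes and not the variation between mice. It bears on the value of a single probe set and gives no error for a family median.

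**Figure D1:**
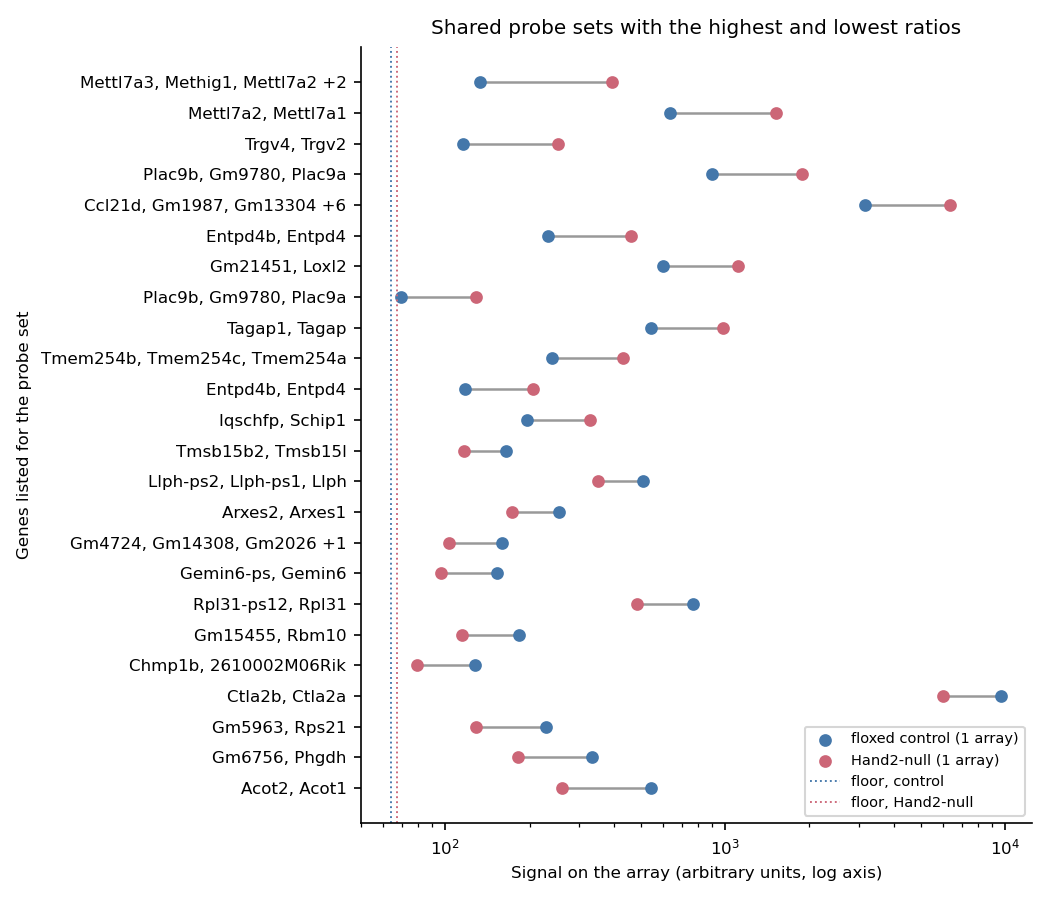
Signal in the floxed control and in the Hand2-null array (arbitrary units, log axis) for the 12 highest and the 12 lowest shared probe sets that passed both floors, 1 array per group, with the first 3 listed genes named and dotted lines at the floors. The Mettl7a lists show the widest gaps to the right, and the Acot2/Acot1 list the widest to the left.

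The highest ratios belonged to Mettl7a, whose genes encode methyltransferase-like proteins of the endoplasmic reticulum and lipid droplets. The probe set listing Mettl7a3/Methig1/Mettl7a2/Higd1c/Mettl7a1 had a signal of 133 in the control and 394 in the Hand2-null array (2.96-fold, log2 ratio 1.56). The one listing Mettl7a2/Mettl7a1 went from 637 to 1517 (2.38-fold, 1.25). Probe sets that list a single gene of the run stood on the same side: 2 of Mettl7a1 had log2 ratios of 1.29 and 1.05 and 1 of Mettl7a2 had 0.65, while another of Mettl7a1 was under the floor in both arrays. The 19 measured probe sets of the 12 genes that flank the run had a median of -0.04, from -0.37 to 0.55. This run and the others set against flanks below were chosen after their values were seen. Values above those of the flanks were thus likely from the choice alone, and these comparisons are a description only.

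Neighbouring copies on chromosome 14 were also higher. The probe set of Plac9b/Gm9780/Plac9a, genes of a small secreted protein, had 894 in the control and 1884 in the Hand2-null array (2.11-fold, log2 ratio 1.07), and a dimmer one with the same list had 69.7 and 128 (0.88). The Tmem254b/Tmem254c/Tmem254a list, for a membrane protein, had 241 and 431 (0.84). Gm2274/Gm2260/Anxa11, with the gene of annexin A11, a calcium-dependent membrane-binding protein, had 359 and 466 (0.37). The Duxbl3/Duxbl2/Duxbl1 list, for double-homeobox proteins, had ratios of 0.12 and 0.11 at control signals of 74.2 and 145, with another probe set under the floor. In all, the 6 measured probe sets of this stretch were higher, with a median of 0.61. The 25 measured probe sets of its 12 flanking genes had a median of -0.10, with 9 higher, though 1 of them, for Slmap, reached 1.13 (1025 to 2249).

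A second stretch of the same chromosome holds copies of Entpd4, which encodes a nucleotide-hydrolysing enzyme of the Golgi and lysosome, and Loxl2, whose lysyl oxidase crosslinks collagen and elastin. Entpd4b/Entpd4 had 232 in the control and 461 in the Hand2-null array (1.99-fold, log2 ratio 0.99) in one probe set and 118 and 206 (0.81) in another. The third was dim, at 40.5 and 73.8, with a floored log2 ratio of 0.20. Gm21451/Loxl2 had 598 and 1115 (0.90), and a dimmer probe set had 147 and 209.5 (0.51). All 5 were higher, with a median of 0.81, against 0.06 over 15 probe sets of the flanking genes, whose highest value was 0.29. The smooth muscle markers, given above, were higher too, and their part in the Loxl2 value was not tested.

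**Figure D2:**
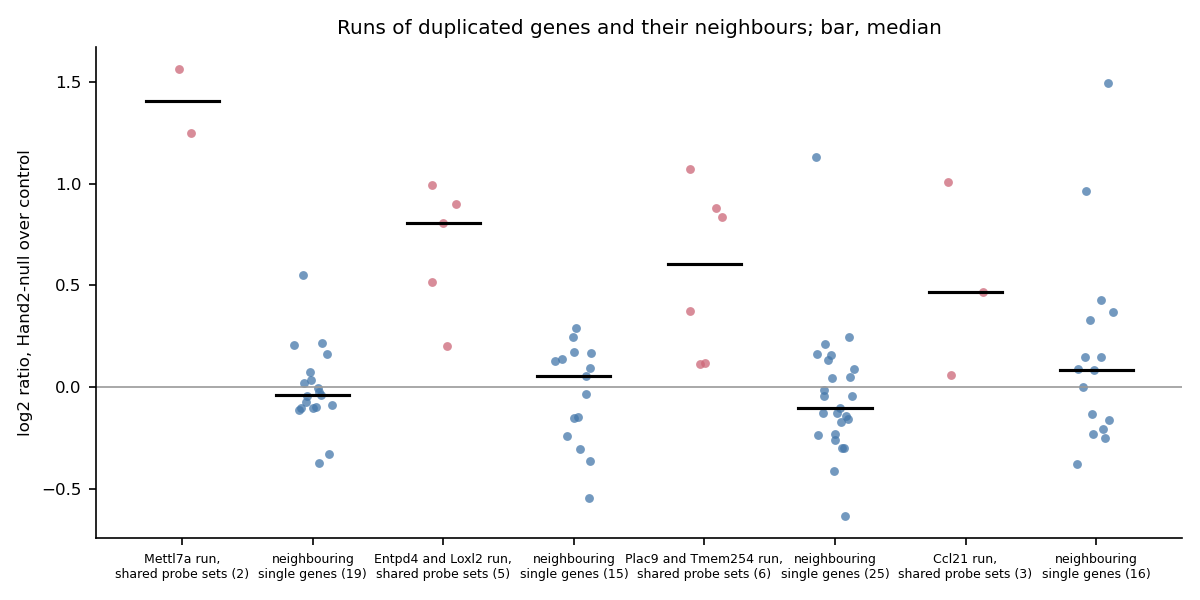
Log2 ratio of Hand2-null over control (vertical axis) for measured shared probe sets in 4 runs of duplicated genes (red) and for single-gene probe sets of their flanking genes (blue), 1 array per group, with bars at the medians and numbers of probe sets in brackets. The medians are 1.41, 0.81, 0.61 and 0.47 for the Mettl7a, Entpd4, Plac9 and Ccl21 runs and -0.04, 0.06, -0.10 and 0.09 for their flanks, and 1 flanking value of the Ccl21 run lies above all its shared ones. The Ccl21 run includes the shared Ccl27 probe sets, while a probe set of Ccl27a alone is counted among its flanks. The 4 runs were chosen after their values were seen.

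Across the genome, 23 stretches held at least 2 gene lists with a measured probe set. All measured probe sets were higher in 7 of them, all were lower in 3, and 13 held both. The stretch with every value lower and the most lists was the Gm14391/Gm4724 group of chromosome 2, which includes several zinc finger genes: its 5 probe sets had log2 ratios from -0.63 to -0.13, with a median of -0.28. The stretch with Gp1bb and that with Tnfsf12 were among those higher throughout, with medians of 0.27 and 0.58 over 2 probe sets each. The first pairs Septin5/Gp1bb (0.46) with the immunoglobulin list Iglc1/Iglv1 (0.07). The 2 measured probe sets of Iglv1 alone were lower, as given below.

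In the chemokine family 4 of 4 measured probe sets, from 3 gene lists, were higher, with a median of 0.31, although 1 list, Gm12854/S100a11-ps/S100a11 (0.15), carries an S100 protein gene that the family's pattern took in. Ccl21 chemokines draw CCR7-bearing T cells and dendritic cells to lymphatic vessels. The probe set that lists 9 genes, among them Ccl21a, Ccl21b, Ccl21c and Ccl21d, had 3167 in the control and 6382 in the Hand2-null array (2.01-fold, log2 ratio 1.01), the highest control signal among the 12 highest ratios. A lymphatic endothelial marker list, chosen after values were seen, was higher in 6 of 6 measured genes (median 1.19), with Lyve1 at 502 and 1460 and a summed signal of 1905 against 4683. Its part in the Ccl21 value was not tested. The genes that flank the Ccl21 run had a median of 0.09 over 16 probe sets, 9 of them higher, and reached past the Ccl21 value: a Dnajb5 probe set had 62.3, under its floor, in the control and 181 in the Hand2-null array, a wider difference than that of Ccl21, and that of Fam214b had 77.1 and 151 (0.97). The Ccl27 list had 75.6 and 104 (0.47) in one probe set and 96.7 and 101 (0.06) in another. A probe set of Ccl27a alone, a gene of that list, had 81.3 and 105 (0.37). It is counted among the 16 flanking probe sets and the 9 higher ones, so these flanks are not wholly apart from the chemokine genes.

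The T cell receptor list and most MHC probe sets were higher as well. Trgv4/Trgv2, variable segments of the gamma chain of the T cell receptor, had 116 in the control and 254 in the Hand2-null array (2.20-fold, log2 ratio 1.13). Of 3 probe sets that list Trgv4 alone, 2 were measured and higher too, at 83.7 and 225 (1.43) and at 88.3 and 216 (1.29), and the other was under the floor in both arrays. A list of 8 genes of gamma delta T cells, chosen after values were seen, had 5 on the array. Trgv1 was under the floor in both arrays, and the 4 measured were higher. Among these 4 is Trgv4 itself, by the probe set at 88.3 and 216 given above, which adds nothing to that value. Il17a, an inflammatory cytokine, had 75.5 and 352 (2.22). Cd163l1 had 191 and 476 (1.32), and Sox13, a factor of these cells, 103 and 120.2 (0.22). The share of such cells in the pools was not tested. Natural killer and T cell markers as a whole were higher in 2 of 5 measured genes. The 2 were Cd3g, at 91.0 and 169 (0.89), and Cd3d, under its floor in the control (a floored ratio of 0.25). The 3 lower were Gzma (-0.47), Gzmb (-0.45) and Nkg7 (-0.34). Cd3e was under the floor in both arrays.

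MHC proteins present peptides to T cells. Of 8 measured MHC probe sets, from 7 gene lists, 7 were higher, and the median log2 ratio was 0.31. The exception was H2-T9/H2-T22/H2-T10, at 909 in the control and 827 in the Hand2-null array (-0.14). H2-DMb2/H2-DMb1, whose product loads peptides on class II molecules, had 93.3 in the control and 142 in the Hand2-null array (0.61) in one probe set and 143 and 213 (0.58) in another. The class I list H2-K1/H2-D1 had 767 and 1045 (0.44), but the 8 measured single-gene probe sets of H2-K1 and H2-D1, several of them brighter, ranged from -0.49 to 0.20. H2-Q6/H2-Q8 had 592 and 735 (0.31). The class I value from this shared probe set was thus not matched by the gene-specific ones.

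Interferon-induced families went both ways. Of 8 measured probe sets of Ifi200 genes, which encode nucleic acid sensors, and of interferon-induced GTPases, 5 were higher and 3 lower (4 and 4 after median centring), with a median of 0.21. Ifi211/Ifi205 had 1030.4 in the control and 1637 in the Hand2-null array (0.67), Mndal/Ifi211/Ifi205/Ifi204 569 and 792 (0.48), and a list with Ifi203 212 and 298 (0.49), though a longer list with Ifi203 had 309 and 289 (-0.10). The 2 probe sets of Mndal alone had 0.42 each. The T cell-specific GTPase list Tgtp2/Tgtp1 was lower, at 398 and 297 (-0.43). In the stretch of chromosome 1 that holds the Ifi200 genes, 5 of 6 measured probe sets were higher, with a median of 0.43. Among the 5 is a list with Csprs, which holds no Ifi200 gene, at 58.2, under its floor, and 71.3 (0.15).

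Immune receptor probe sets, 8 from 7 gene lists, were divided, 4 higher and 4 lower, with a median of -0.04. The complement list C4a/C4b had 442 in the control and 732 in the Hand2-null array (0.73). Lilrb4a/Lilr4b, immunoglobulin-like receptors of myeloid cells, had 854 and 1221 (0.52). Ly6c2/Ly6c1, surface proteins of monocytes and endothelium, had 1805 and 1325 (-0.45), and Sirpb1c/Sirpb1b/Sirpb1a, signal-regulatory receptors, had 100.1 and 72.3 (-0.47). Macrophage markers were higher in 3 of 8 genes (median -0.08), and blood endothelial markers lower in 5 of 6 (median -0.24).

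Immunoglobulin probe sets, 5 measured from 3 gene lists, had a median of 0.02. The kappa constant-region list of Igkv6-23/Igkv4-53/Igkv8-30/Igkj1/Igkc had 6998 in the control and 6864 in the Hand2-null array in one probe set (-0.03), 5832 and 5937 in another (0.03) and 4433 and 4487 in the last (0.02). A probe set of Igkv8-30 alone, one of the listed genes, was lower, at 3562 and 2905 (-0.29). The variable-segment list Igkv6-14/Igkv6-23/Igkv8-19 had 100.3 and 41.5, the second of them under its floor, for a floored ratio of -0.57. Iglc1/Iglv1, of the lambda chain, had 373 and 392 (0.07), while probe sets of Iglv1 alone had 465 and 344 (-0.43) and 174 and 34.3, the last under its floor (a floored ratio of -1.37). Both measured B and plasma cell markers were lower (median -0.56).

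Tagap1/Tagap, for a GTPase-activating protein of activated T cells, had 542 in the control and 986 in the Hand2-null array (1.82-fold, log2 ratio 0.86). Iqschfp/Schip1, overlapping genes of a protein that binds schwannomin, had 196 and 329.6 (0.75), and a dimmer probe set, under its floor in the control, had a floored ratio of 0.61. In xenobiotic metabolism 5 of 5 measured probe sets, from 3 gene lists, were higher, with a median of 0.18. Among them the Ugt1a list, for enzymes that attach glucuronic acid, had 1198 and 1355 (0.18), 305 and 368 (0.27) and 698 and 729 (0.06), and Akr1c12/Akr1c13, aldo-keto reductases, had 74.4 and 95.4 (0.36).

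**Figure D3:**
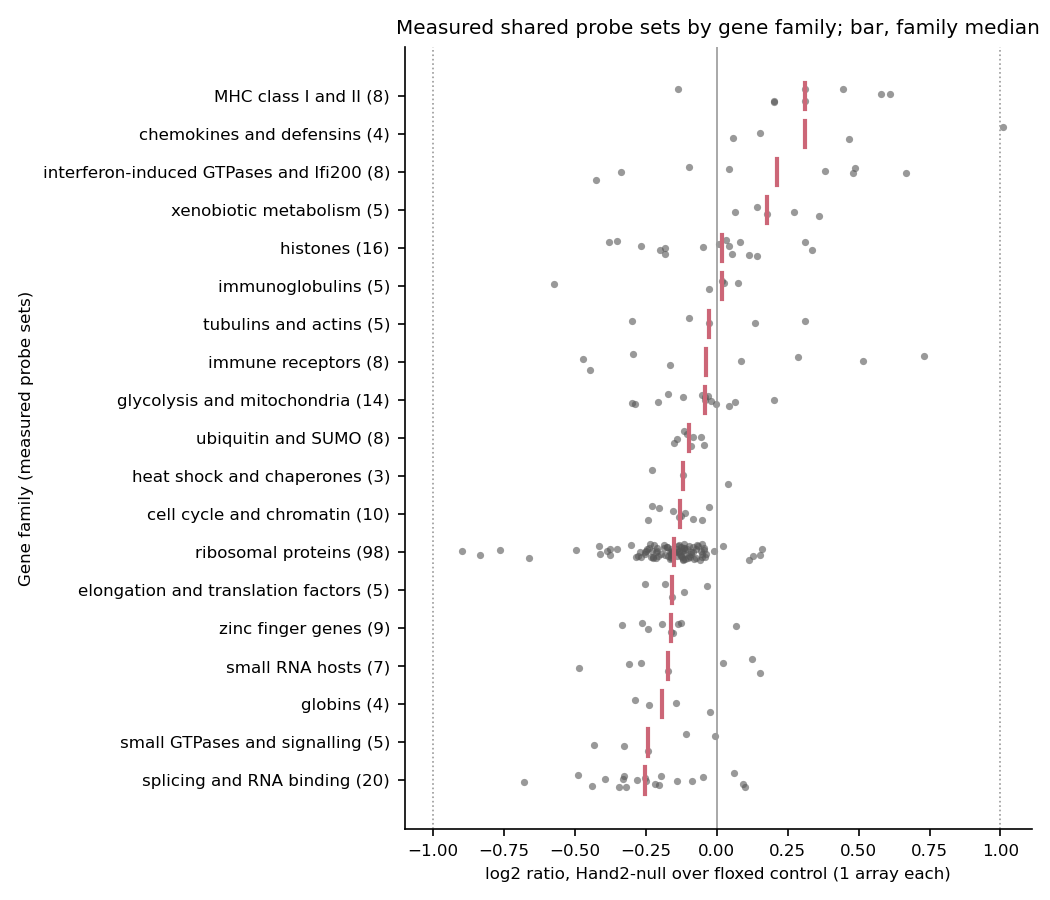
Log2 ratio of Hand2-null over floxed control (horizontal axis, 1 array per group) of each measured shared probe set by gene family, for the 19 families with at least 3 measured; red bars mark medians, brackets give the number of probe sets and dotted lines mark 2-fold. MHC probe sets have the highest median, 0.31, and those of splicing and RNA binding the lowest, -0.25.

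The lowest ratio was that of Acot2/Acot1, neighbouring genes of acyl-CoA thioesterases, which release fatty acids from coenzyme A in mitochondria and cytosol. Its signal was 545 in the control and 262 in the Hand2-null array (2.08-fold lower, log2 ratio -1.06). The gene-specific probe sets stood apart from each other: that of Acot1 had 714 and 329.7 (-1.11) and the measured one of Acot2 had 261 and 210.5 (-0.31). Gm6756/Phgdh, with the first enzyme of serine synthesis, had 333 and 182 (-0.87), another list with Phgdh had 235 and 178 (-0.40), and the 4 probe sets of Phgdh alone ranged from -0.53 to -0.18.

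Ctla2b/Ctla2a, which encode inhibitors of cathepsin-like cysteine proteases and are known from the decidua, had 9714 in the control and 6020.3 in the Hand2-null array (1.61-fold lower, log2 ratio -0.69). Ctla2b alone had 590.1 and 332 (-0.83), and Ctla2a alone had 7472 and 5559 (-0.43). All 3 were lower. Other low values came from dimmer probe sets. Gemin6-ps/Gemin6, of the SMN complex, had 153 and 96.9 (-0.66). For Gm15455/Rbm10, a splicing regulator, the dimmest had 184 and 115 (-0.68), while brighter probe sets of the same list had -0.35 and -0.20. Arxes2/Arxes1, of adipocytes, had 254 and 173 (-0.55) and 98.5 and 83.3 (-0.24).

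Ribosomal proteins were the largest family. Of 110 probe sets 98, from 51 gene lists, were measured, 5 of them higher and 93 lower. Their median log2 ratio was -0.15 and their median control signal 9011. The 5 brightest shared probe sets were all of this family: that of LOC100862455/LOC100044627/Rpl23 had 14143.5 in the control and 12937 in the Hand2-null array (-0.13), and that of Gm11478/Rpl13a had 12615 and 10902 (-0.21). Larger differences lay in dimmer probe sets, and brighter ones of the same list did not share them: Gm5963/Rps21 had 229 and 129 (-0.84) in one probe set and ratios from -0.12 to -0.06 in 4 brighter ones, and Rpl31-ps12/Rpl31 had 766 and 484 (-0.66) in one and from -0.05 to 0.02 in 3 brighter ones. The value depends on scaling: 75 of the 98 were lower after quantile normalization (median -0.06) and 80 after loess (median -0.07).

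Families for other parts of gene expression were also mostly lower. Of 20 splicing and RNA-binding probe sets, from 10 gene lists, 17 were lower (median -0.25), as they were under median centring, quantile normalization and loess, where the median lay between -0.31 and -0.21. Gm14277/Snrpd1, a core protein of spliceosomal particles, had 507 in the control and 362 in the Hand2-null array (-0.49), and the Hnrnpa1 list had 1789 and 1317 (-0.44), 1649 and 1254 (-0.39) and 2163 and 1722 (-0.33). All 10 cell cycle and chromatin probe sets, from 5 gene lists, were lower (median -0.13; 9 after quantile normalization and 8 after loess), such as Gm7931/Gm9525/Gm6750/Hmgn2, a nucleosome-binding protein, at 4254 and 3597 (-0.24). All 5 probe sets of elongation and translation factors were lower (median -0.16; 4 after loess), but 3 of them carry the list Eif3j2/Eif3j1. So were 8 of 8 of ubiquitin and SUMO, from 4 gene lists (median -0.10; 7 after loess). Of 9 zinc finger probe sets, from 7 gene lists, 8 were lower (median -0.16). Outside gene expression, all 5 probe sets of small GTPases and signalling, from 3 gene lists, were lower (median -0.24), and 4 after loess. Of 14 for glycolysis and mitochondria, from 12 gene lists, 11 were lower (median -0.04), but 6 after loess. For heat shock and chaperones 2 of 3 were lower (median -0.12).

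Histone probe sets, which mix coding copies across clusters, had 9 higher and 7 lower of 16 measured, from 9 gene lists (5 and 11 after median centring), with a median of 0.02. The replication-independent H3f3 list had 5 measured probe sets, with ratios from -0.27 to 0.05 and a median of -0.05. The brightest had 5811 in the control and 5837 in the Hand2-null array (0.01), and the lowest ratio was that of 3287 and 2734. The H2A list led by H2ac23 had 4033 and 3095 (-0.38) and the H3 list led by H3c1 170.3 and 133 (-0.35). A list of H4 genes at 77.4 and 97.7 (0.34) and another H3 list at 94.5 and 117 (0.31) stood on the other side. Probe sets for H3 thus went in opposite directions while listing overlapping genes.

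Globin probe sets, of genes known from red cells, were lower in 4 of 4 (3 after loess), with a median of -0.19. Of these, 3 carry the list Hba-a2/Hba-a1. That list had 3036 in the control and 2483 in the Hand2-null array (-0.29), 204 and 173 (-0.24), and 2247 and 2209.8 (-0.02). Of 4 red cell markers only Alas2 had a probe set of its own, under the floor in both arrays (12.5 and 7.16). The part of red cells in the globin values was not tested. The Myl6 list, for a light chain of smooth muscle and nonmuscle myosin, had 4831 and 5990.5 (0.31) and 7026 and 7708 (0.13), and the probe set of Myl6 alone had 288 and 498 (0.79). Smooth muscle markers had a median of 1.36, and their part in these values was not tested.

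Some families gave no reading. None of 10 keratin and skin probe sets was measured, with signals of at most 38.1 in the control and 49.0 in the Hand2-null array. None of 12 olfactory and vomeronasal receptor probe sets was measured (at most 10.1 and 10.8), nor any of 6 for protocadherins (at most 48.9 in either array) or 5 for urinary and secreted lipocalins. Of 24 probe sets of germ cell and X-linked clusters 2 were measured. Epithelial keratins that have a probe set of their own are not part of this count.

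Small RNA hosts are lists that pair a microRNA or a small nucleolar RNA with a longer transcript. Which of them gave the signal was not read. The name does not make every longer transcript a host: miR-692 lies on chromosomes 13, 17 and 4, and Mir682 and Rpl37a lie on different chromosomes. Of 7 measured probe sets 4 were lower and 3 higher, and the median was -0.17. For 4 of the 6 measured lists with a microRNA, its mature sequence in RefSeq (GRCm38.p6) follows, with the seed, bases 2 to 8, in capitals.
miR-5136: aUAUGCGAgggaacuacugg
miR-214-3p: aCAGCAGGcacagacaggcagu
miR-214-5p: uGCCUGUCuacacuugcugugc
miR-675-3p: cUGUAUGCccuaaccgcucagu
miR-675-5p: uGGUGCGGaaagggcccacagu
miR-5130: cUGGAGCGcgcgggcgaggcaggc
None of these share a seed. They lie at chr19:8888709-8888728 (miR-5136, minus strand), chr1:162223438-162223459 and chr1:162223397-162223418 (miR-214-3p and miR-214-5p, plus strand), chr7:142577078-142577099 and chr7:142577112-142577133 (miR-675-3p and miR-675-5p, minus strand), and chr14:102982608-102982631 (miR-5130, minus strand). Mir5136/5730408K05Rik had 125.0 in the control and 89.3 in the Hand2-null array (-0.49), and Dnm3os/Mir214 had 152 and 135 (-0.17). Mir675/H19, the imprinted host transcript, had 145 and 158 (0.12), and Mir5130/Kctd12 had 1460.2 and 1624 (0.15). Of the others, the Mir692 list, which holds Ftl1, had 172 and 174 (0.02), and Mir682/Rpl37a, counted with the ribosomal proteins, had 211 and 177 (-0.25). Snora24/Snhg8 had 4523 and 3757 (-0.27), and Snord47/Gas5 had 739.6 and 597 (-0.31), where the 4 probe sets of Gas5 alone ranged from -0.51 to -0.29.

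For 164 of the measured shared probe sets, a measured probe set listed one of the same genes alone. Across these probe sets, which are not independent of each other since many share a gene and all share the same 2 arrays, Pearson's r between the shared value and the median of the gene-specific ones was 0.60 and Spearman's rho 0.45. They lay on the same side of 0 in 106 of 164, and the median size of the difference was 0.20. In 16 the difference was at least 0.5. The widest was Chmp1b/2610002M06Rik, with a protein that shapes endosomal membranes, at 128 in the control and 79.4 in the Hand2-null array (-0.69), while a second probe set of the list had -0.33 and both probe sets of Chmp1b alone had 0.32. Exoc6/Sh3glb1, with 63.1 in the control, under its floor, and 124 in the Hand2-null array, had a floored ratio of 0.95, against 0.29 in another probe set of the list and a median of 0.17 over 5 probe sets of the 2 genes.

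**Figure D4:**
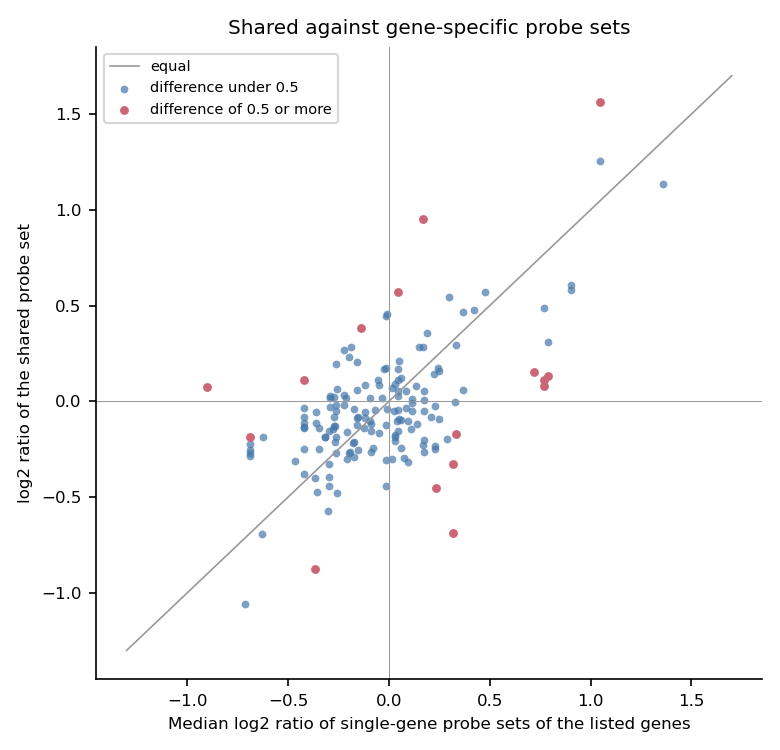
Log2 ratio of each shared probe set (vertical axis) against the median log2 ratio of measured probe sets listing 1 of its genes alone (horizontal axis) for 164 shared probe sets, 1 array per group, with a line where both are equal. The 16 red points differ by at least 0.5.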

How the data were processed

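The series holds 1 Affymetrix mouse array per genotype. The authors deposited linear intensity values (MAS5 signal), for which the submitters' processing notes name MAS5 and Affymetrix Expression Console (version 1). Their mean after trimming 2% at each end is 150.001 in both arrays, so each had been scaled to that mean. MAS5 subtracts mismatch probes, which makes dim values unsteady. No genome build of the files is given in the sources used here. Gene lists came from the platform annotation, and 1484 of 1551 listed genes were found in RefSeq (GRCm38.p6), which gave gene order, promoters and microRNAs. The sequences of the probes were not used here.

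Of 45101 probe sets, 64 controls were left out. From the deposited intensity values, log2 ratios of Hand2-null over control were computed with numpy 2.4.6 and pandas 2.3.3, after raising each value to the array's 60th percentile of non-control probe sets. A probe set was measured at or above that floor in at least 1 array, and counted at a 2-fold difference. The floor understates falls of dim probe sets, as was seen when the script was tested on simulated data. It also cuts rises that start from a control signal under the floor. Depth of an array is not counted, and the number of arrays limits the precision: no p-value can be had.

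The members and lists were chosen with earlier results of these data known. The 27 families come from patterns on the listed symbols, first match, and several patterns were corrected after values were seen, as 2 marker lists were added after. Families with at least 3 measured probe sets were described. Chosen for naming were the 12 highest and 12 lowest that passed both floors, and the 5 brightest. Any of at least 2-fold with 1 array under the floor were to be added (0 met this). For each such family, the brightest and up to 4 with the largest ratio were added. Some of those chosen are not printed in the text. Others named, in the stretches of copies, among microRNA hosts and in the comparison with gene-specific probe sets, were chosen after their values were seen. Alternatives were median centring, quantile normalization, loess (span 0.3), other floors, a pseudo-signal, other thresholds and subsets of the members.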

Additional observations from a re-analysis of the deposited data

How the results depend on the processing

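The counts of shared probe sets past 2-fold depended most on how dim values were treated. The main counts were 5 higher and 1 lower. Without a floor, where all 932 were counted, they were 84 and 99. With the floor at the 50th percentile 3 were lower, and with a pseudo-signal equal to the floor 3 were higher and 0 lower. At 1.5-fold they were 20 and 11, and at 3-fold 0 and 0. The median over shared probe sets lay between -0.15 (median centring) and -0.03 (loess) in every alternative run. The share that was lower lay between 56.0% (at least 2 protein-coding genes) and 73.1%. The shared median less that of all measured probe sets was -0.073, against -0.023 after quantile normalization and -0.035 after loess. The median size of the difference between shared and gene-specific probe sets was 0.47 without a floor, against 0.20. Family medians of histones and immunoglobulins turned from 0.02 to -0.03 and -0.04 under median centring and to -0.03 and -0.10 as means; that of histones was also -0.04 under the higher floor and that of immunoglobulins -0.03 without one. That of immune receptors turned from -0.04 to 0.09 with the floor at the 50th or 75th percentile, and those of glycolysis and mitochondria (-0.04) and of tubulins and actins (-0.03) to 0.01 under loess. The last was 0.13 without _x_at probe sets. The interferon family's median of 0.21 was 0.04 both without those and under the lower floor, and 0.40 without a floor, where that of the chemokine family went from 0.31 to 0.74. Of 106 named probe sets, 10 changed side under median centring, quantile normalization or loess, all with ratios of at most 0.11 in size. The cause was not tested. No paired analysis was possible because each group has 1 array, and for the same reason no replicate could be left out.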
